A study of Mus musculus with 42 samples.

Results

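Cd5l (ENSMUSG00000015854) lies on the forward strand of mouse chromosome 3, at chr3:87357881-87371073 of mm10, and spans 13193 bp in 6 exons. It was taken as 1 of the 21884 annotated genes and was selected on its RNA polymerase II (Pol II) signal, which differed between Nur77-deficient and wild-type macrophages, so the Pol II difference between the genotypes at this gene is described here with no test. For Pol II, the normalized tags of the called regions were shared by overlap over the gene body and 500 bp on either side. For acetylation of lysine 27 of histone H3 (H3K27ac), found at promoters and enhancers in use, they were shared over 2500 bp on either side of the start. The neighbours within 200 kb were Kirrel, Fcrls, Fcrl1, Fcrl5 and Etv3, and the same stretch held 17 of the 70903 Pol II regions and 37 of the 65218 H3K27ac regions found across the libraries.

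The samples were bone marrow-derived macrophages (BMDMs), cultured for 7 days in medium conditioned by L929 cells, from male mice of 6 to 12 weeks. The 2 genotypes were wild type (WT) and knockout (KO) for Nur77, the orphan nuclear receptor encoded by Nr4a1, deleted in the whole body by crossing a loxP-flanked allele with a Cre driven by the CMV promoter, after which, by the study's methods, KO animals without the Cre were bred. The methods give C57Bl6/J as the strain of the Cre mice, name none for the loxP-flanked mice, and describe the WT animals as littermates. The sample labels give the KO genotype only as cre, and the exons removed are not given in the sources used here. Each genotype was treated with 100 ng/ml of lipopolysaccharide (LPS), which activates macrophages through Toll-like receptors, for 0, 1 or 18 h. Each of the 6 groups held 3 libraries for Pol II, 3 for H3K27ac and 1 input, 42 libraries in all. The study's methods speak of biological replicates for such libraries. They do not say whether these came from separate mice, or whether both antibodies were used on the same cultures. The p-values therefore measure only the spread between these libraries, which need not be a spread between mice. Lower Pol II per cell and fewer cells with Pol II on a gene cannot be told apart in such bulk samples.

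Cd5l encodes a secreted protein of tissue macrophages, also called AIM (apoptosis inhibitor of macrophages), built of scavenger receptor cysteine-rich (SRCR) domains. It is known as a target of the liver X receptors (LXRs), it protects macrophages from apoptosis, and it enters fat cells through Cd36 and inhibits fatty acid synthase. Nur77 binds DNA as a monomer at the NBRE, an 8-base element. Of the neighbours, Fcrl1 and Fcrl5 encode Fc receptor-like proteins of B cells, Fcrls a relative found on microglia, and Etv3 an ETS-family transcriptional repressor.

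The sequences of 5 stretches are shown, and whether any value below depends on them was not tested. Shown are the Cd5l promoter, the site before the gene that gained Pol II after 18 h in WT, and 3 NBRE sites. These sites are 3 of the 5 places where an NBRE fell inside an H3K27ac region that was lower in KO. All 5 stretches are forward-strand GRCm38.p6 sequence, the build named mm10, as held by RefSeq. Capitals mark matches, on either strand, to the NBRE (AAAGGTCA), AP-1 (TGAGTCA), PU.1 (GAGGAAGT), a TATA element (TATAAA) or an LXR element, which is AGGTCA followed after 4 bases by AGGTCA or AGTTCA. The NBRE itself contains AGGTCA.
Cd5l promoter, chr3:87357631-87357880: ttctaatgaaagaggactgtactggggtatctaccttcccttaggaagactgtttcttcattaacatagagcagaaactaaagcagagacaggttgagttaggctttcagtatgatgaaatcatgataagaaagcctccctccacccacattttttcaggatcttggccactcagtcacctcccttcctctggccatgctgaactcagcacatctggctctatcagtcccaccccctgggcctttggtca
Site 6.6 kb before the start, chr3:87351301-87351600, intergenic: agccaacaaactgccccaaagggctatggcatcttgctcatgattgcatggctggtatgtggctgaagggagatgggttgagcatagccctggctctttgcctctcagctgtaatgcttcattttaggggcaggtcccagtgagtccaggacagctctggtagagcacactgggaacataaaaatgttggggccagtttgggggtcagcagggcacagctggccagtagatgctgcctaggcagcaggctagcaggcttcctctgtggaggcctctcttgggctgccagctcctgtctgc
NBRE 30.1 kb before the start, chr3:87327646-87327845, intergenic: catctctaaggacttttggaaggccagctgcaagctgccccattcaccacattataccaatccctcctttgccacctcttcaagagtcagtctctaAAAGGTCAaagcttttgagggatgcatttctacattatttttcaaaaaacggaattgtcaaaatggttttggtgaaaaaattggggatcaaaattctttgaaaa
NBRE 23.6 kb before the start, chr3:87334175-87334374, intergenic: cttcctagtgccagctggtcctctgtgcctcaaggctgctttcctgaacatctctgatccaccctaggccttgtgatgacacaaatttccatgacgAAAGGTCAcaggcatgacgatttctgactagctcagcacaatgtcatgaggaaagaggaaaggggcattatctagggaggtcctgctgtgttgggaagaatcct
NBRE 6.3 kb past the start, chr3:87364084-87364283, in an intron of Cd5l: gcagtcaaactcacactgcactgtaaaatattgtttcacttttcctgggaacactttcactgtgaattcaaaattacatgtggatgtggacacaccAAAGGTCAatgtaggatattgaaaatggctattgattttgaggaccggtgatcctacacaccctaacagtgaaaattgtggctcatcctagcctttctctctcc

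None of the 5 motifs matched in the 250 bases before the Cd5l start, nor in the 300 bases 6.6 kb before it. Among 32851 RefSeq promoters of that length, 1.34% held an NBRE, 4.46% the AP-1 motif, 2.44% the PU.1 motif, 12.4% the TATA element and 0.0152% the LXR element. In the stretch from 200 kb before Cd5l to 200 kb past it, 22 NBRE matches stood, or 5.32 per 100 kb, against 5.98 per 100 kb over chromosome 3. Of these, 9 fell in an H3K27ac region and 5 in the 13 regions that were lower in KO at 1 or more times. The former regions span 125214 bp and the latter 63774 bp of the stretch. The printed matches 30.1 and 23.6 kb before the start sat in the H3K27ac domain that begins 35.8 kb before the gene. Over the genome, 62.9% of the 852 H3K27ac regions of 15 to 25 kb held at least 1 NBRE and 8.8% held 3 or more. The number of matches in the domain was not tested against these shares. The intronic match was another of the 5 in regions lower in KO. So was a match in the 3′ untranslated part of the last exon, 12.5 kb past the start.

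In WT macrophages Cd5l carried Pol II along its whole length, and in KO macrophages almost none was listed. At 0 h the WT libraries held 727, 849 and 851 normalized tags over the gene (per 10000000 tags), and the KO libraries 7.19, 14.6 and 7.32. The groups lay far apart, with means of 809 ± 70.7 and 9.71 ± 4.26 (SD, n = 3 each).
At 1 h the WT libraries held 225, 189 and 222, with a mean of 212 ± 20.2. At 18 h they held 756, 679 and 738, with a mean of 724 ± 39.8. All 6 KO libraries of these times were listed at 0, which means that no window over the gene reached the threshold of the peak caller, not that no read fell there. On the log2(tags + 10) scale the difference of KO from WT was -5.39 at 0 h, -4.47 at 1 h and -6.20 at 18 h. Cd5l was thereby the lowest of 13219 genes tested at 0 h, the third lowest of 12068 at 1 h and the second lowest of 12795 at 18 h, the contrast by which it was chosen. Were every uncalled stretch of the KO libraries filled to just under the calling threshold, their highest values would be 170, 171 and 166 at 0, 1 and 18 h. The lowest WT library would then still be 4.28-fold, 1.11-fold and 4.09-fold higher, so the threshold leaves the widest room at 1 h. The inputs, 1 per group, held 86.3, 62.5 and 93 normalized tags over the gene in WT at 0, 1 and 18 h, and 40.7, 6.05 and 0 in KO. Every region over Cd5l, once merged over libraries, overlapped a region called in an input, and the part of the input in the difference was not tested.

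**Figure D1:**
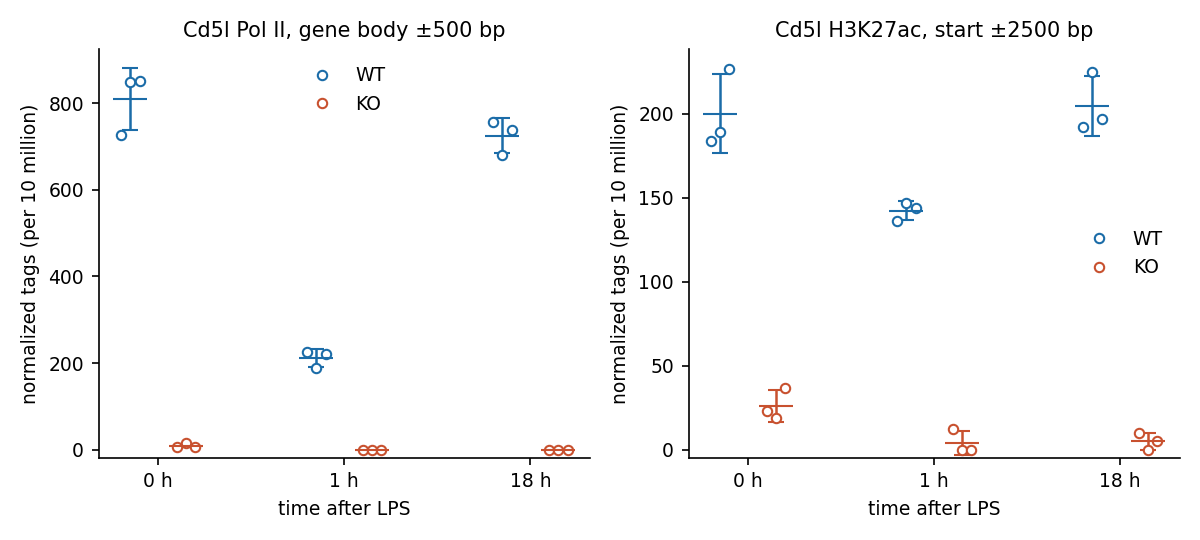
Normalized tags (per 10000000 tags) of Cd5l in each library, for Pol II over the gene body with 500 bp on either side and for H3K27ac within 2500 bp of the start, by genotype and hours of LPS; points are libraries, horizontal lines group means and error bars the SD (n = 3). The WT Pol II points fall from 727 to 851 at 0 h to 189 to 225 at 1 h and stand at 679 to 756 at 18 h, while no KO library exceeds 14.6.

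Cd5l stood among the more heavily loaded genes in resting WT macrophages. Per kb of window its Pol II level was 57, 15 and 51 normalized tags at 0, 1 and 18 h, above 92.3%, 69.4% and 88.7% of the genes found at each time. H3K27ac around its start was ordinary by the same measure, with 40, 28.5 and 41 normalized tags per kb, above 50.1%, 39% and 49.5% of genes.

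LPS lowered Pol II on Cd5l in WT within 1 h, and at 18 h the level again overlapped that of 0 h. The 1 h libraries held 26.2% of the 0 h mean, and no 1 h library reached any of 0 h. The log2 difference was -1.88 ± 0.13 (SE, limma, adjusted p = 3.7e-10). The WT libraries also entered the contrast between genotypes by which Cd5l was chosen, so the tests of LPS times in WT are not fully independent of that choice. Of the 13229 genes tested, 68.5% were called lower at 1 h and the median was -0.82, so Cd5l fell by 1.06 more than the median gene, and 17% of genes were at least as low. That share rests on the scaling. With values centred on shared regions 5574 genes were lower and 4982 higher (median -0.10), and under quantile normalization 5077 and 4536 (median -0.04). Cd5l itself fell by 0.99 ± 0.12 (adjusted p = 5.7e-07) and by 1.55 ± 0.11 (adjusted p = 1.7e-09) under these scalings. Within 500 bp of the start alone the difference was -0.85 (adjusted p = 0.00024). From 1 to 18 h Pol II on Cd5l rose 3.42-fold, by 1.73 ± 0.13 on the log2 scale (adjusted p = 1.1e-09), in a comparison in which 66.5% of genes were called higher and the median was 0.81. That share too rests on the scaling. With centring on shared regions 5012 genes were higher and 5344 lower (median -0.02), and under quantile normalization 5140 and 4676 (median 0.07). Between 0 and 18 h the groups overlapped, and the difference of -0.16 ± 0.13 did not pass the test (adjusted p = 0.31), while 66.6% of genes passed it in either direction. Under quantile normalization that difference was -0.50 with an adjusted p of 0.00079. In KO the values of at most 14.6 at 0 h were followed by 0 in all 6 libraries.

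H3K27ac around the Cd5l start, measured in other libraries than those that chose the gene, was also lower in KO. At 0 h the WT libraries held 184, 189 and 227 normalized tags, and the KO libraries 22.9, 18.9 and 36.6. At 1 h the WT values were 136, 147 and 144, and the KO values 12.6, 0 and 0. At 18 h the WT values were 192, 225 and 197, and the KO values 10.1, 0 and 5.54. At no time did the genotypes overlap, and the lowest WT library was 2.9-fold, 2.14-fold and 3.54-fold above the highest KO library with its uncalled stretches filled to the threshold. The difference of KO from WT was -2.56 ± 0.29 at 0 h (adjusted p = 0.00013) and -3.88 ± 0.29 at 18 h (adjusted p = 5.8e-07). At 1 h it was -3.54, given with no test, since 1 KO library alone held a region and the gene passed the filter, 2 libraries of either group, through WT. At these times 0.305%, 7.42% and 2.30% of genes were called lower in KO, and Cd5l was the 6th lowest of 11804, the 6th lowest of 11815 and the 5th lowest of 11452. These shares move with single libraries. Without replicate 1 the genes called lower at 1 h were 2663 of 11707, without replicate 2 they were 30 of 11545 and without replicate 3 they were 20 of 11459. Without the KO libraries of replicate 1 at 1 and 18 h, which stand apart from the others, they were 2853 of 11772 at 1 h and 1659 of 11351 at 18 h. With a pseudocount of 1 in place of 10, the 0 h difference was -2.94 and no longer passed (adjusted p = 0.18). The H3K27ac libraries of KO were sequenced to 23.6 to 55.4 M tags and those of WT to 13.5 to 31.1 M, where M stands for 1000000.

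No LPS change of H3K27ac around the Cd5l start passed the test in WT. The 1 h values of 136 to 147 lay below all 0 h values, but the difference was -0.46 ± 0.29 (adjusted p = 0.20), in a comparison in which 29.4% of genes were called lower. It did pass with a pseudocount of 30 (-0.41, adjusted p = 0.03) and with touching regions counted in full (-0.84, adjusted p = 0.037). From 1 to 18 h the difference was 0.49 ± 0.29 (adjusted p = 0.16), where 29.0% of genes were called higher. From 0 to 18 h it was 0.04 ± 0.29 (adjusted p = 0.93), and 50.0% of genes were called in either direction. In KO the mean H3K27ac at Cd5l was 26.1 ± 9.28 before LPS, 4.2 ± 7.27 after 1 h and 5.21 ± 5.06 after 18 h (SD, n = 3 each). The difference from 0 to 18 h was -1.28 ± 0.29 (adjusted p = 0.0017), and that from 0 to 1 h, -1.43, has no test, since the gene passed the filter through 0 h alone. With uncalled stretches filled to the threshold, KO would be at 58.2, 56.5 and 63.4 before LPS, 60.9, 63.7 and 50.5 after 1 h, and 49.8, 54.3 and 54 after 18 h, so the values before LPS and after 1 h would overlap. The change after LPS in KO minus that in WT was -0.97 ± 0.41 at 1 h (adjusted p = 0.20) and -1.31 ± 0.41 at 18 h (adjusted p = 0.18) in this window, neither past the test. In the longer region from 1.8 kb before the start to 8.8 kb past it, the 18 h change differed between the genotypes by -1.55 ± 0.27 (adjusted p = 0.0038), and the 1 h change by 0.01 ± 0.27 (adjusted p = 0.98).

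The called regions over Cd5l in WT were single at 0 and 18 h and in pieces at 1 h. At 0 h each WT library had a single Pol II region of 20043 to 20715 bp, which began 0.6 to 1.3 kb before the start, ran through the whole gene and ended 19.3 to 19.4 kb past the start, within the beginning of Fcrl1. These regions held 51.2, 59.8 and 59.9 normalized tags per kb. At 18 h the single region was 18426 to 20823 bp long, with 53.2, 47.9 and 52 tags per kb. At 1 h the signal was broken into 3 to 5 regions per library, the longest of 3911 to 8506 bp and at the start of the gene. From 500 bp before the start to 2000 bp past it the level at 1 h was 30.7 ± 6.99 tags per kb. In the middle of the gene it was 13.2 ± 2.05 tags per kb, over the last 2000 bp 5.14 ± 1.91, and over the 6000 bp past the end 7.82 ± 0.773. At 1 h the level was thus highest near the start in every WT library, whereas at 0 and 18 h a gradient within the gene cannot be read, because a region carries 1 value along its length. Signal near the calling threshold is listed in pieces, so the breaks at 1 h and the lower level there cannot be told apart.

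H3K27ac in WT was also more extended than the window around the start. The longest region over the gene was 5028 to 9980 bp at 0 h, 4801 to 6132 bp at 1 h and 6495 to 10453 bp at 18 h, and reached into the middle of the gene. In KO the longest was 1645 to 2261 bp, 1175 to 1844 bp and 780 to 1437 bp at these times. The tags of all regions over the gene summed to 521 to 569, 321 to 350 and 505 to 566 in WT, and to 83.5 to 99.8, 45.8 to 57.2 and 23.2 to 30.6 in KO. In the middle of the gene KO kept 5.11 ± 0.143, 4.45 ± 0.743 and 1.55 ± 0.679 tags per kb, against 35.9 ± 3.86, 22.6 ± 0.972 and 34.1 ± 4.52 in WT. All 9 KO libraries kept an H3K27ac piece between 6.2 and 8.1 kb past the start, at or just past the NBRE printed above at 6.3 kb. The piece lay in the intron and in some libraries reached into exon 3. It held 42.1, 38.9 and 41.7 tags before LPS, 33.2, 43.5 and 42.9 after 1 h, and 20.5, 9.26 and 7.48 after 18 h. For Pol II, the KO libraries of 0 h each had 1 or 2 regions of 500 to 829 bp over the gene, at the start, at 6.7 kb or at 11.2 kb, and none at 1 or 18 h.

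**Figure D2:**
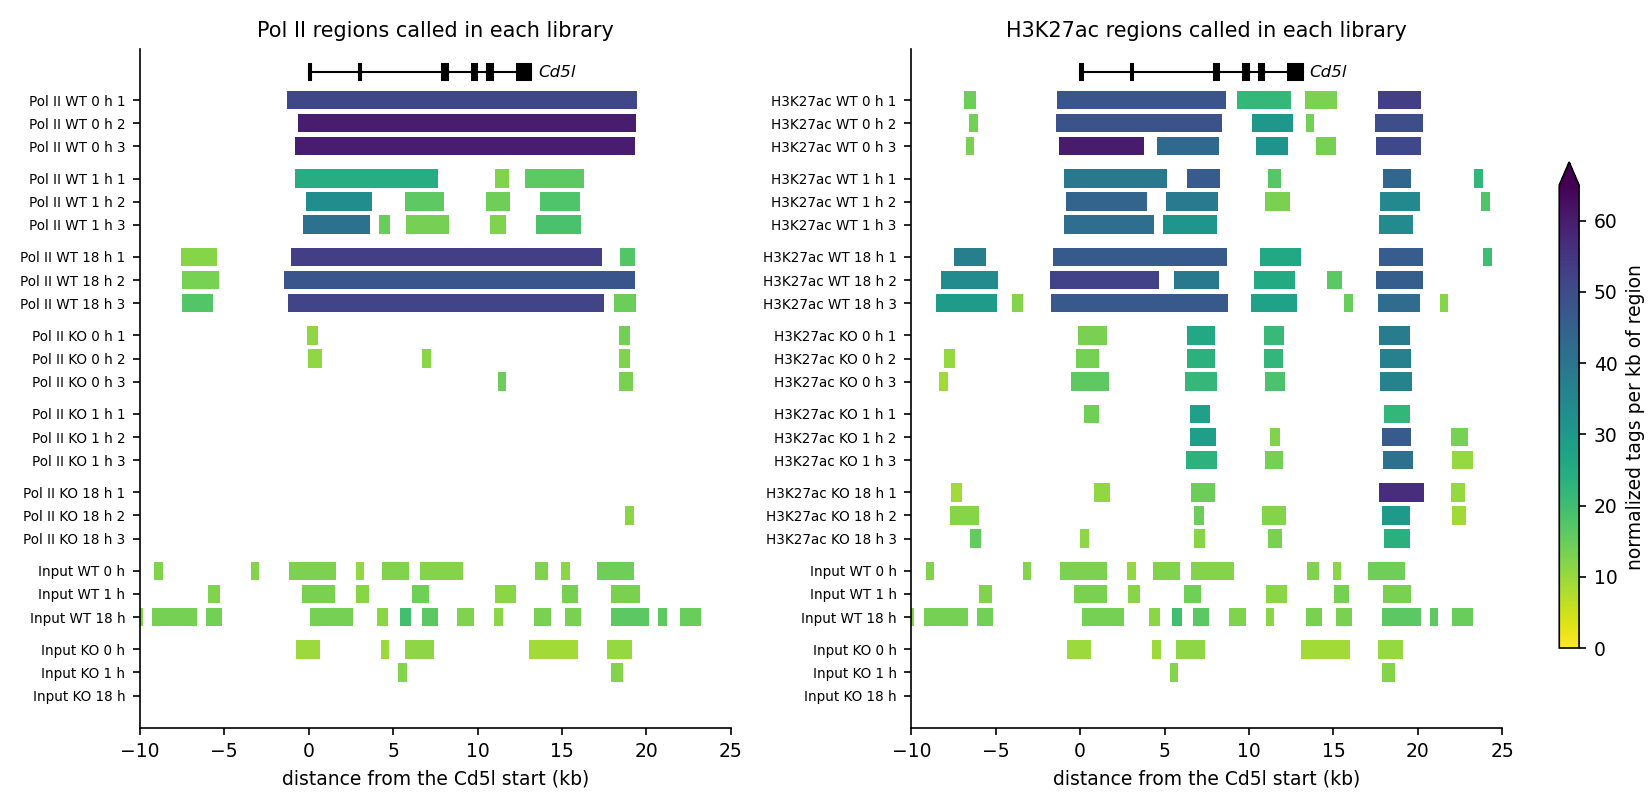
Regions called over Cd5l in each library, for Pol II and H3K27ac, against the distance from the Cd5l start in kb; each row is a library, the inputs included, each bar a called region coloured by its normalized tags per kb, and the gene is drawn with its exons. The WT Pol II regions of 0 and 18 h are unbroken over 18426 to 20823 bp, those of 1 h are in 3 to 5 pieces, and over the gene KO has pieces of 500 to 829 bp at 0 h alone.

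**Figure D3:**
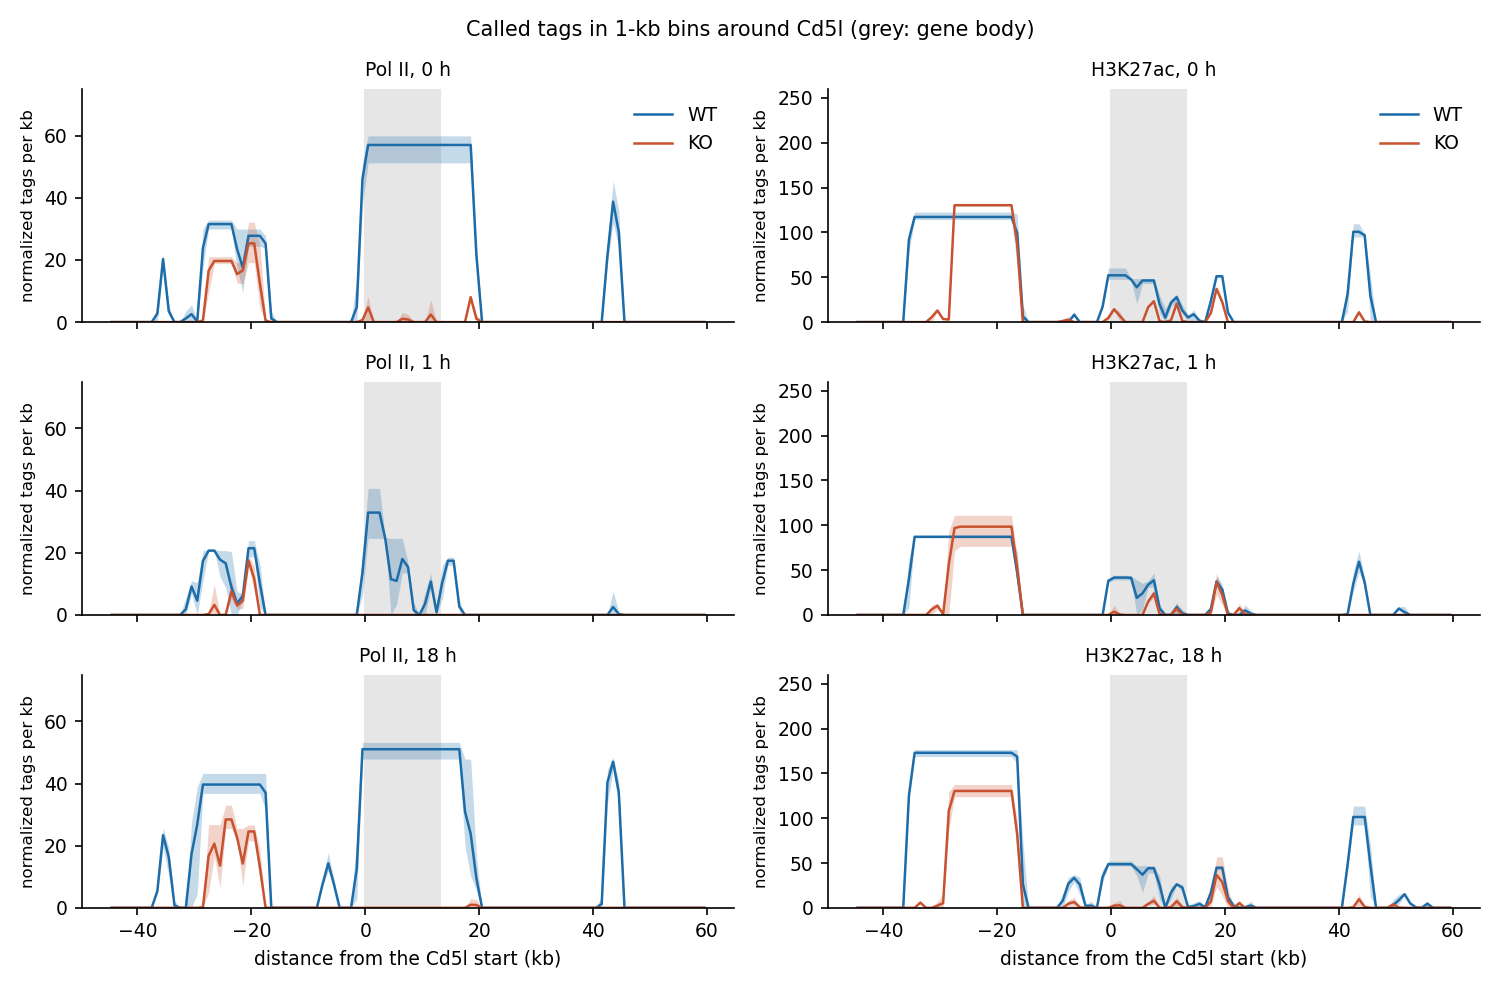
Mean normalized tags per kb in steps of 1 kb along Cd5l and its flanks, by genotype and hours of LPS, against the distance from the start in kb; lines are means of 3 libraries, shading their range, and grey marks the gene. In WT the Pol II level at 1 h is 30.7 tags per kb around the start and 5.14 near the end of the gene, while KO has no called Pol II over the gene at 1 h.

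When the H3K27ac regions of all libraries were merged, the region from 1.8 kb before the start to 8.8 kb past it (chr3:87356067-87366634) held 477, 476 and 463 normalized tags in WT at 0 h and 65, 57.8 and 78.3 in KO. The difference of KO from WT was -2.65 ± 0.19 before LPS (adjusted p = 2.3e-07), -2.64 ± 0.19 after 1 h (adjusted p = 3.7e-07) and -4.20 ± 0.19 after 18 h (adjusted p = 1e-09). The region over the 3′ end of the gene, 9.3 to 13.1 kb past the start, was called at 18 h, at -2.12 ± 0.41 (adjusted p = 0.0035), with KO values of 0, 17.3 and 10.2 against 64.5, 61.5 and 74.8. Without replicate 2 that call is at its limit (-2.48, adjusted p = 0.05), and with a pseudocount of 1 it is lost (-3.52, adjusted p = 0.073).

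A long H3K27ac domain lies before the gene, from 35.8 to 15.6 kb ahead of the start (chr3:87322033-87342319, intergenic), and holds the NBRE matches printed above at 30.1 and 23.6 kb. Its WT values were 2270, 2430 and 2230 normalized tags before LPS, 1670, 1660 and 1630 after 1 h, and 3410, 3480 and 3410 after 18 h. In KO it held 1530, 1560 and 1560, then 877, 1390 and 1360, then 1670, 1720 and 1520. Each WT library was above all KO libraries of its time, and the difference was -0.57 ± 0.12 at 0 h (adjusted p = 0.011), -0.48 ± 0.12 at 1 h (adjusted p = 0.011) and -1.06 ± 0.12 at 18 h (adjusted p = 4.2e-05). Only the 18 h value passes the requirement of a log2 change over 1, and it is -0.99 and -0.98 with centring on shared regions or quantile normalization. The called domain was shorter in KO, beginning at most 33.9 kb before the start. Ahead of that point, which was set where the first KO region begins, WT held 203, 234 and 222 tags before LPS, 158, 104 and 143 after 1 h, and 318, 312 and 311 after 18 h. In the part nearer the gene, called in both genotypes, WT held 2070, 2200 and 2000 before LPS and KO 1530, 1560 and 1560. After 1 h the WT values there were 1520, 1560 and 1490 and the KO values 877, 1390 and 1360, and after 18 h they were 3100, 3170 and 3100 against 1670, 1720 and 1520.
Pol II was lower over the same stretch. Its region from 31.5 to 16.9 kb before the start held 316, 339 and 354 tags in WT and 214, 182 and 178 in KO at 0 h (-0.78 ± 0.17, adjusted p = 0.0067, below a log2 change of 1). The difference was -1.72 ± 0.17 at 1 h (adjusted p = 1.2e-06) and -1.28 ± 0.17 at 18 h (adjusted p = 3.1e-05). The Pol II region 36.3 to 33.9 kb before the start held 21.6 to 30.5 tags in WT before LPS, 0 after 1 h and 43.1 to 48.8 after 18 h. It was at 0 in every KO library.

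Closer to the gene, the site 7.6 to 5.3 kb before the start was called for Pol II only in WT after 18 h of LPS. It held 25.5, 29.8 and 33.2 tags in those libraries and was listed at 0 in the other 15. It passed the filter through that group alone, so its difference of KO from WT at 18 h, -1.98 on the log2 scale, is given with no test. The H3K27ac region there, 8.6 to 4.9 kb before the start, held 69.8, 114 and 106 tags in WT after 18 h, 6.55 to 11.3 before LPS and 0 after 1 h. KO held 5.69, 20 and 9.73 at 18 h (-2.32 ± 0.25, adjusted p = 2.3e-05). The H3K27ac change from 0 to 18 h differed between the genotypes at this site by -1.89 ± 0.36 (adjusted p = 0.0063).

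On the other side, at the 3′ end of Fcrl1, 41.4 to 45.7 kb past the Cd5l start (chr3:87399301-87403604), was a site at which KO held little of either mark. Its H3K27ac in WT was 374, 362 and 340 before LPS, 129, 131 and 135 after 1 h, and 402, 406 and 393 after 18 h. In KO it was 14.9, 9.99 and 10 at 0 h, 0 in all libraries at 1 h, and 0, 18.7 and 15.7 at 18 h. The differences were -4.10 ± 0.27 at 0 h (adjusted p = 9.2e-08) and -4.40 ± 0.27 at 18 h (adjusted p = 3.5e-08). At 1 h it was -3.82, with no test, since the region passed the filter through WT alone. Its Pol II region, 41.9 to 44.9 kb past the start, held 74.6, 95.6 and 97 tags in WT before LPS, 0, 0 and 8.62 after 1 h, and 132, 125 and 120 after 18 h. No KO library held any. The Pol II difference was -3.30 at 0 h and -3.76 at 18 h on the log2 scale, with no test, since the region passed the filter through WT alone.

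Farther sites were lower in KO too. The H3K27ac region in Fcrl5, 128.4 to 133.1 kb past the Cd5l start, held 184 to 199 tags in WT and 24 to 32.4 in KO at 0 h, 290 to 324 and 67.6 to 93.4 at 1 h, and 687 to 732 and 212 to 286 at 18 h. Its differences of KO from WT were -2.41 ± 0.13 (adjusted p = 7e-09), -1.78 ± 0.13 (adjusted p = 3.3e-07) and -1.51 ± 0.13 (adjusted p = 1.3e-06). At 207.4 to 209.5 kb, past Etv3, the WT values were 60.5 to 86.3, 15.6 to 24.4 and 48.2 to 53.6, and KO held 8.71 to 10.8 at 0 h and 0 thereafter. The region 58.8 to 56.7 kb before the start held 54.1, 31.1 and 48.6 tags in WT at 0 h and 0 in all other libraries, and so passed the filter through that group alone. In the opposite direction, H3K27ac 178.4 to 183.7 kb past the start, at the end of Etv3, was 35.7, 40 and 32.9 in KO at 18 h against 0, 7.83 and 0 in WT. The difference of 1.93 has no test, since the region passed the filter through KO alone, and the call it counts for below is lost without replicate 2 (2.15) or replicate 3 (1.84).

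**Figure D4:**
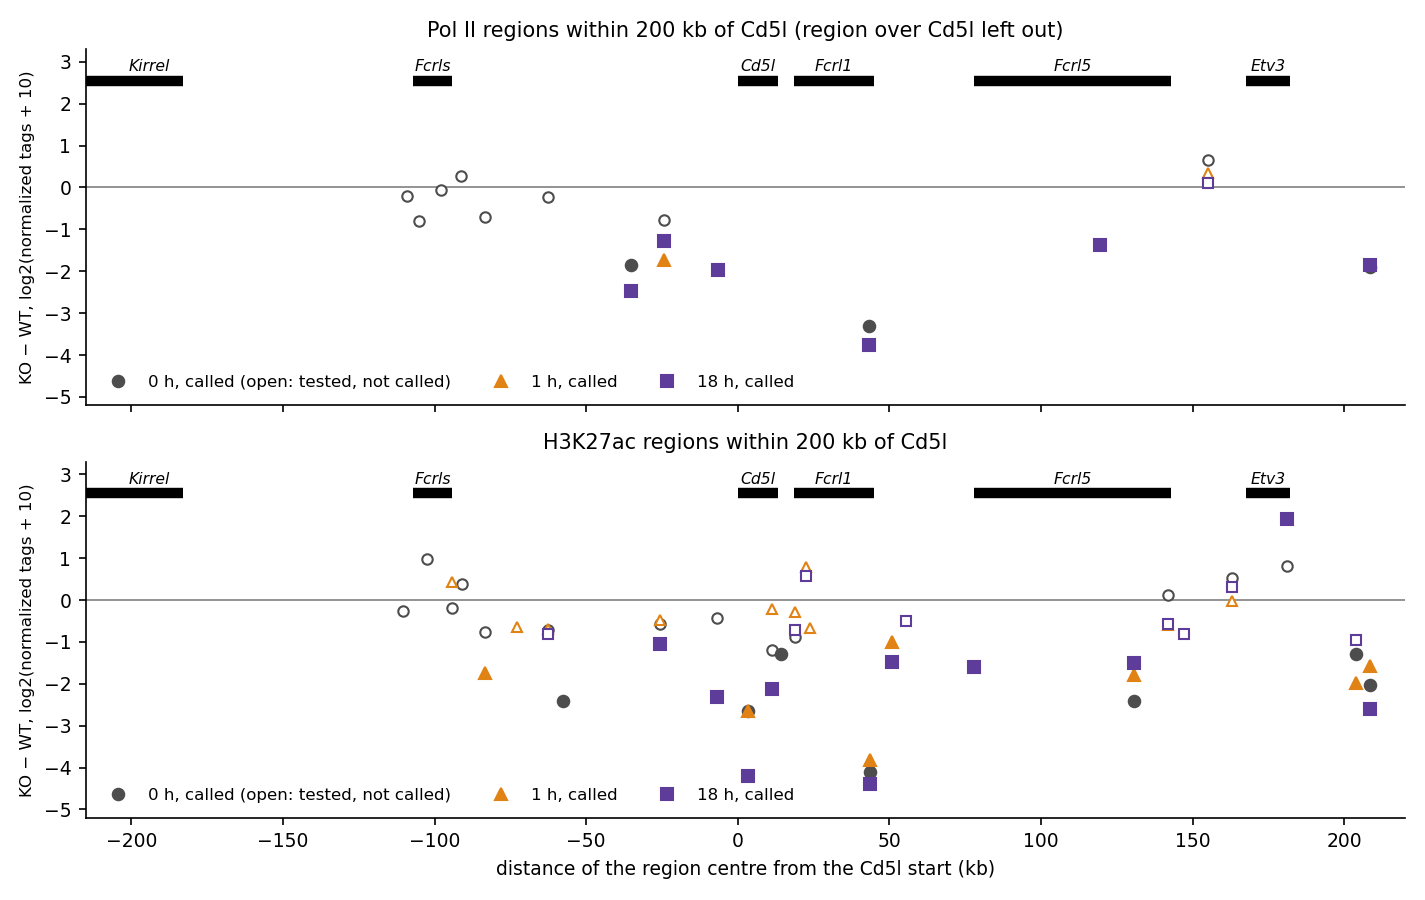
Log2 difference of KO from WT in each region tested within 200 kb of Cd5l, for Pol II and H3K27ac at 0, 1 and 18 h, against the distance from the Cd5l start in kb; filled points are called and open points were tested and not called, and bars show the genes. The called points lie below 0, down to -4.40 at the 3′ end of Fcrl1, except 1 H3K27ac point at 18 h, and Pol II regions over Cd5l itself are left out.

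Counted together, 6 of the 16 Pol II regions besides that over Cd5l were called lower in KO at 1 or more times, and none higher. By time, 3 of 11 tested were lower at 0 h, where 1.13% of Pol II regions were so called over the genome, 1 of 2 at 1 h (1.98%), and 6 of 7 at 18 h (2.49%). For H3K27ac, 13 of the 37 regions, those over Cd5l included, were lower at 1 or more times. By time, 7 of 20 were lower at 0 h (0.590% over the genome), 7 of 17 at 1 h (4.43%) and 9 of 18 at 18 h (1.12%), and 1 of 18 was higher at 18 h (2.62%). These H3K27ac shares over the genome rest on the same libraries as the shares of genes, which moved with single replicates as given above. From 200 kb to 1 Mb away, the Pol II counts were 0 of 29, 0 of 19 and 2 of 25, and the H3K27ac counts 0 of 28, 4 of 37 and 0 of 37. Farther out the lower H3K27ac regions at 0 h were 8 of 205 from 1 to 5 Mb away (3.90%), 2.30% on the rest of chromosome 3 and 0.475% on other chromosomes. The Pol II shares at 0 h were 2.14%, 2.63% and 1.06% in that order. Regions of a locus are not independent of each other, so these counts carry no test. The lower Pol II calls that passed the filter through WT alone, with KO at 0 at that time, were 3 of 3 at 0 h, 0 of 1 at 1 h and 5 of 6 at 18 h. Of the lower H3K27ac calls they were 3 of 7, 4 of 7 and 2 of 9, and the higher call passed through KO alone. Of the 6 Pol II regions, 5 were at 0 in all 9 KO libraries, as were 4 of the 13 H3K27ac regions, and their fitted change depends on the pseudocount.

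The neighbouring genes differed between the genotypes in both directions. Etv3, the repressor gene 154.3 kb away, carried more Pol II in KO. The WT libraries held 1410, 1570 and 1760 tags before LPS, 2250, 2590 and 2220 after 1 h, and 1920, 1910 and 1940 after 18 h. The KO libraries held 2480, 2470 and 2360, then 3750, 3480 and 3630, then 2820, 2800 and 3150, each above all WT libraries of its time. Etv3 was higher by 0.63 ± 0.08 at 0 h (adjusted p = 3.5e-05), 0.62 ± 0.08 at 1 h (adjusted p = 8.9e-06) and 0.60 ± 0.08 at 18 h (adjusted p = 2.1e-05). At these times 4.24%, 38.3% and 7.58% of genes were called higher, and the median over all genes at 1 h was 0.24. With centring on shared regions 1630 genes were higher and 3611 lower at 1 h (median -0.09), and Etv3 was higher by 0.57 ± 0.08 (adjusted p = 0.00025), 0.24 ± 0.08 (adjusted p = 0.025) and 0.70 ± 0.08 (adjusted p = 8.1e-06) at 0, 1 and 18 h. Over all genes, centring gave 1567 higher and 1138 lower at 18 h, against 970 and 1731 without it. With touching regions counted in full, the 18 h difference of Etv3 was 0.08 (adjusted p = 0.23). H3K27ac at the Etv3 start did not pass at any time, at 0.52 ± 0.15 (adjusted p = 0.16), 0.03 ± 0.15 (adjusted p = 0.89) and 0.24 ± 0.15 (adjusted p = 0.40), with 0.466%, 11.1% and 0.952% of genes called higher.

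Fcrl1 carried 148, 180 and 174 Pol II tags in WT at 0 h and 9.36, 7.67 and 10.3 in KO, and 148, 190 and 139 against 0, 5.65 and 0 at 18 h. The differences were -3.21 and -3.85 on the log2 scale, where 2.73% and 13.5% of genes were called lower, and are given with no test because part of these tags belongs to the region by which Cd5l was chosen. The lowest WT library would be 0.451 and 0.43 times the highest KO library with its uncalled stretches filled to the threshold. The called regions covered at most 15.1% of the Fcrl1 window, and lay at its ends: the region that runs on from Cd5l and the site at its 3′ end. H3K27ac at the Fcrl1 start did not pass, at -0.88 ± 0.33 (adjusted p = 0.35), -0.29 ± 0.33 (adjusted p = 0.55) and -0.73 ± 0.33 (adjusted p = 0.24). Fcrl5 carried 133 to 158 Pol II tags in WT and 125 to 137 in KO at 0 h (-0.14 ± 0.39, adjusted p = 0.90). After LPS it rose in WT to 248 to 903 at 1 h and 2620 to 2690 at 18 h, against 8.83 to 30.9 and 276 to 754 in KO. These differences were -4.19 ± 0.39 at 1 h (adjusted p = 4.2e-07, 7.48% of genes called lower) and -2.27 ± 0.39 at 18 h (adjusted p = 0.00044). Against KO filled to the threshold, the lowest WT library would be 0.31 times as high at 1 h and 1.9-fold higher at 18 h. The tags come largely from a region that runs from Etv3 into the 3′ end of Fcrl5, and with touching regions in full the 18 h difference was -1.53 (adjusted p = 0.39). H3K27ac at the Fcrl5 start was found in WT at 18 h alone, at 11.6, 28.3 and 22.8, and so passed the filter through that group alone. The lowest of these would be 0.214 times the highest KO library filled to the threshold.
Fcrls, 94.1 kb before Cd5l, held 147, 157 and 185 Pol II tags in WT and 140, 164 and 146 in KO at 0 h (-0.11 ± 0.11, adjusted p = 0.67), and the groups overlapped. It was at 0 in all 12 libraries after LPS. Kirrel was listed at 0 in all libraries of both antibodies.

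**Figure D5:**
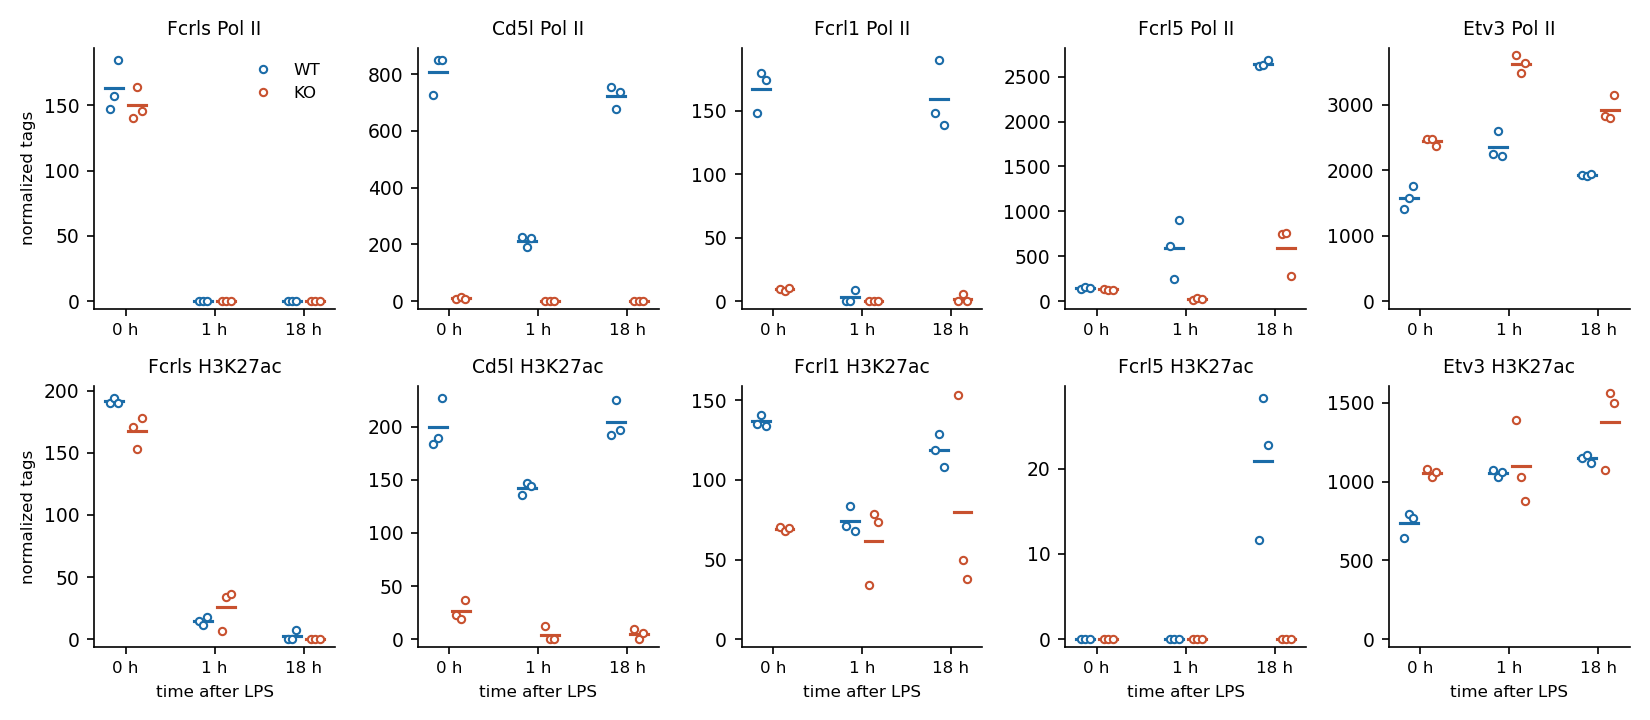
Normalized tags (per 10000000 tags) of Cd5l and its neighbours in each library, for Pol II over the gene and H3K27ac around the start, by genotype and hours of LPS; points are libraries and lines group means. In Pol II, Cd5l and Fcrl1 are lower in KO at 0 and 18 h, Etv3 is higher in KO at each time, and Fcrls has 140 to 185 tags at 0 h in both genotypes and none after LPS.

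Of 15 genes besides Cd5l that encode SRCR domains, 11, 9 and 10 were tested for Pol II at 0, 1 and 18 h. Lower in KO were 1, 2 and 2, where 2.73%, 7.48% and 13.5% of all genes were so called, and higher 0, 0 and 2 (4.24%, 38.3% and 7.58% of all genes). The medians were -0.20, 0.01 and -0.15, beside 0.04, 0.24 and -0.10 over all genes. Msr1, the class A scavenger receptor, fell by 0.69 ± 0.06 at 0 h (adjusted p = 9.3e-07), 0.21 ± 0.06 at 1 h (adjusted p = 0.011) and 0.54 ± 0.06 at 18 h (adjusted p = 5.7e-06). Marco, a related scavenger receptor, held 40.9 ± 19.9 tags in KO at 18 h and was listed at 0 in WT, and so passed the filter through KO alone. Prss12, a serine protease, was higher by 0.34 ± 0.07 at 18 h (adjusted p = 0.0023), and Loxl3, a lysyl oxidase, was lower, at -0.39 ± 0.11 (adjusted p = 0.016). No H3K27ac difference passed among the 7, 7 and 8 members tested.

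Of 15 LXR and RXR receptor genes and LXR targets other than Cd5l, 15, 13 and 14 were tested for Pol II at 0, 1 and 18 h. Lower were 0, 3 and 4, and higher 3, 6 and 1, beside the same shares of all genes. The medians were 0.18, 0.16 and -0.18, beside the 0.04, 0.24 and -0.10 of all genes. Nr1h3, which encodes LXR alpha, differed by 0.10 ± 0.08 at 0 h (adjusted p = 0.55), was higher by 0.25 ± 0.08 at 1 h (adjusted p = 0.017) and differed by -0.03 ± 0.08 at 18 h (adjusted p = 0.84). Pltp, the phospholipid transfer protein, was 0.00 ± 0.07 apart at 0 h (adjusted p = 0.98) and fell by 1.15 ± 0.07 at 1 h (adjusted p = 1.4e-09) and 0.92 ± 0.07 at 18 h (adjusted p = 3.1e-08). Mertk, a receptor for apoptotic cells, was higher by 0.47 ± 0.06 at 0 h (adjusted p = 4.3e-05) lower by 0.68 ± 0.06 at 1 h (adjusted p = 1.8e-07) and higher by 0.26 ± 0.06 at 18 h (adjusted p = 0.004). Scd2, a fatty acid desaturase, fell by 0.66 ± 0.15 at 18 h (adjusted p = 0.0045), as did Apoe, the apolipoprotein, by 0.66 ± 0.16 (adjusted p = 0.0082). At 1 h Scd2 was higher by 0.89 ± 0.27 in H3K27ac (adjusted p = 0.034). Its Pol II at 1 h was 4.45 ± 4.23 in KO and listed at 0 in WT, and so passed the filter through KO alone. For H3K27ac the counts of lower members were 0, 0 and 2, where 0.305%, 7.42% and 2.30% of all genes were lower, and of higher members 0, 1 and 0, where 0.466%, 11.1% and 0.952% were higher.

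Of 16 genes of tissue-resident macrophages, 12, 12 and 11 were tested for Pol II, and 0, 0 and 6 were lower in Pol II at 0, 1 and 18 h and 1, 4 and 2 higher. All genes were called lower at 2.73%, 7.48% and 13.5% and higher at 4.24%, 38.3% and 7.58%. The medians were 0.01, 0.09 and -0.26, beside 0.04, 0.24 and -0.10. In H3K27ac none was lower, and 2 of the 10 tested were higher at 1 h, where 11.1% of all genes were. C1qa, a subunit of complement C1q, fell by 2.32 ± 0.25 at 18 h (adjusted p = 3.3e-06), from 281 ± 121 in WT to 45.7 ± 18.6 in KO (SD, n = 3 each). It lies beside C1qb and C1qc, which fell by 0.26 and 0.25, and a region that covers several genes is divided by overlap. Vsig4, a complement receptor, held 36.5 ± 9.91 tags in KO and 5.25 ± 9.10 in WT at 1 h, a call that passed the filter through KO alone and is given with no test. Hmox1, the heme-degrading enzyme, was higher in H3K27ac at 1 h by 0.98 ± 0.23 (adjusted p = 0.013) and lower in Pol II at 18 h, at -0.41 ± 0.13 (adjusted p = 0.031). Of 5 genes for the uptake and targets of the Cd5l protein, 4 were tested, and Cd36, the scavenger receptor through which it enters cells, was higher by 0.39 ± 0.07 at 0 h (adjusted p = 0.0016) and 1.02 ± 0.07 at 1 h (adjusted p = 7.9e-09), when 38.3% of all genes were higher, and differed by -0.01 ± 0.07 at 18 h (adjusted p = 0.97).

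The genes whose Pol II followed Cd5l most closely over all 18 libraries were Cysltr2 (r = 0.906), Trim12a (r = 0.892), Vsig8 (r = 0.89) and Bid (r = 0.868), by Pearson correlation of log2 values over 13658 genes. The points share their libraries and both genotypes, so the correlation holds the difference between the genotypes as well as the LPS times. Cysltr2, a leukotriene receptor, and Trim12a were listed at 0 in all KO libraries. In WT, Trim12a went from 96.7 ± 16.4 at 0 h to 341 ± 0.355 at 1 h and 1390 ± 34.2 at 18 h, unlike Cd5l. The others of the closest 8 were Fam72a (r = 0.853), Golph3l (r = 0.835), Trim5 (r = 0.827) and Sh3d19 (r = 0.819). Golph3l and Sh3d19 lie on chromosome 3 as well. Sh3d19 (chr3:85971109-86130526) was at 0 in KO and held 38.5 ± 9.97, 6.04 ± 5.58 and 9.73 ± 5.33 in WT at 0, 1 and 18 h. Over the 9 WT libraries alone, in which LPS is what varies, the closest were Gm20605, Lrch4, 1700017B05Rik and Sap25 (r = 0.999 each) and Fhad1 (r = 0.998). Lrch4 held 899 ± 61.3, 396 ± 21.3 and 852 ± 24.7 in WT, and 1020 ± 23.2, 442 ± 38.8 and 700 ± 20.9 in KO. The first pair and Sap25 lie side by side on chromosome 5 and share regions.

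The values that could touch these results across the series were as follows. Pol II at Nr4a1 itself was 189, 188 and 208 in WT and 87.8, 76.1 and 70.2 in KO at 0 h (-1.22 ± 0.17, adjusted p = 0.00012), whereas at 1 h each KO library (33.5, 39 and 36.6) lay above each WT library (25.5, 23 and 30.4), a difference of 0.36 ± 0.17 that did not pass (adjusted p = 0.089). At 18 h the WT libraries held 7.46, 5.98 and 0 and the KO libraries 0, which is given with no test. H3K27ac at Nr4a1 overlapped between the genotypes at 0 h, at 85.5, 68.5 and 74.4 in WT and 84.4, 61.4 and 74.6 in KO. A deletion of exons need not remove Pol II from the rest of a gene, so these values are a partial check of the labels. All 8 macrophage markers were found, with summed Pol II tags of 23100 to 36600 in KO and 21400 to 43900 in WT. At 18 h 5 of them were lower in KO and none higher, namely Itgam (-1.16), Lyz2 (-0.74), Csf1r (-0.53), Adgre1 (-0.25) and Fcgr1 (-0.25), where 13.5% of all genes were lower. That share rests on the scaling, since with centring on shared regions 1138 genes were lower and 1567 higher at 18 h. At 1 h 3 of the macrophage markers were lower (7.48% of all genes) and 1 higher (38.3% of all genes). B cell markers, which bear on the Fcrl genes, summed to 59.5 to 161 in KO and 41.4 to 159 in WT, with Pax5 and Ebf1 among those at 0. Cd79a held 111 tags in KO and 80.5 in WT before LPS, and Ms4a1 was -0.65 ± 0.22 in Pol II at 18 h (adjusted p = 0.044). At 1 h Ms4a1 held 6.31 ± 5.36 Pol II tags in KO and none in WT, and its H3K27ac was higher in KO, at 198 against 110 (0.71 ± 0.22, adjusted p = 0.04). T cell markers summed to 144 to 226 and 136 to 190, neutrophil markers to 0 to 20.5 and 0 to 30.2, dendritic cell markers to 295 to 1280 and 258 to 1370, erythroid markers to 0 to 27.4 and 0 to 31.7, and fibroblast markers to 0 to 6.21 and 0. These Pol II ranges, taken over all LPS times, overlapped between the genotypes for each list. At 0 h the H3K27ac sums did not overlap for B cell markers (175 to 251 in KO, 270 to 294 in WT) and dendritic cell markers (261 to 286 and 292 to 316). Of the T cell markers Lck (0.30) and Cd3d (0.41) were higher in Pol II at 1 h and Cd3d lower at 18 h (-0.34), and the dendritic cell marker Xcr1 was higher at 18 h (0.71). The part of these markers in the results was not tested. Pol II libraries held 21.7 to 36.1 M tags. Replicates correlated at 0.985 or more for Pol II and 0.984 or more for H3K27ac, but KO replicate 1 at 1 h and at 18 h correlated at 0.895 to 0.899 with the other two. Without these libraries the Cd5l H3K27ac calls at 0 and 18 h stand, and 6 in place of 1 of the H3K27ac differences at neighbouring genes pass, among them Etv3 at 0 h (0.52, adjusted p = 0.00095) and Fcrl1 at 18 h (-1.27, adjusted p = 3.5e-06). Over the genome the genes called lower in that setting rose too, to 2853 of 11772 at 1 h and 1659 of 11351 at 18 h.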

How the data were processed

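Chromatin immunoprecipitation followed by sequencing was analysed for 36 Pol II and H3K27ac libraries and 6 inputs. According to the methods, the authors trimmed with Skewer, ran HISAT2 (2.1.0 in the submitters' processing notes) against mm10, removed duplicates and called broad regions with HOMER. Per the file headers, this was done in each library in the histone style, with 500-bp windows, a Poisson threshold of 0.001 and stitching under 1000 bp, and the recorded command names no input. The deposited signal is the number of normalized tags per called region, per 10000000 tags, so reads outside called regions are missing and a gene without a region is listed at 0.

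Regions of all libraries of an antibody were merged, and tags were shared over genes by overlap. Values were tested on a log2(normalized tags + 10) scale with limma 3.58.1 (R 4.3.3), with 6 group means over 18 libraries per antibody, for features found in 2 or more libraries of either group, and with Benjamini-Hochberg adjustment over all features. Genes were called at an adjusted p under 0.05, and regions also needed a log2 change over 1. The code was tested on simulated data. Fold changes on this scale understate the change of low values. Group means are given ± SD and fitted differences ± SE. Genes were named by rule: Cd5l, all neighbours within 200 kb, the called members of a list with the largest change (at most 4), and the 8 and 5 genes with the most similar values. Nr1h3 was named outside the rule, and some genes and sequences are not reported here. Sequences came from RefSeq, in whose promoter table Cd5l was found. Alternatives were pseudocounts of 1 and 30, other filters, scalings, windows and overlap rules, and leaving out replicates or regions that overlap an input. Cd5l, the gene lists and the tests were chosen with earlier results of these data known.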

Additional observations from a re-analysis of the deposited data

Results flagged for a closer look

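The change after LPS differed between the genotypes, by the interaction term of the limma fit and as the log2 change in KO minus that in WT, at 2 neighbouring genes and 10 regions near Cd5l. After 1 h, Fcrl1 differed in Pol II by 2.91, given with no test, and Fcrl5 by -4.05 (SE 0.55, adjusted p = 0.00011). Fcrl5 differed by -2.13 (SE 0.55, adjusted p = 0.015) after 18 h in Pol II and by -1.59 in H3K27ac. Fcrl1 was at 7.67 to 10.3 in KO before LPS and at 0 after 1 h, so KO could hardly fall, and part of its tags belongs to the region that runs on from Cd5l. Fcrl5 H3K27ac was found in WT at 18 h alone, so its value has no test.

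Of the Pol II regions at 0 in KO throughout, those found in WT at 0 h and listed at 0 in at least 2 WT libraries at 1 h gave positive values after 1 h. KO could not fall from 0, so each value is the WT change with its sign turned. These were 1.86 at -36.3 to -33.9 kb, 3.0 at 41.9 to 44.9 kb and 1.9 at 207.7 to 209.2 kb from the Cd5l start. After 18 h the Pol II values were -1.98 at -7.6 to -5.3 kb and -1.37 at 117.9 to 121.2 kb, and the H3K27ac region at -58.8 to -56.7 kb, found in WT at 0 h alone, differed by 2.42 at both times. These too are WT changes beside a KO at 0 and are given with no test. After 18 h the H3K27ac values were -1.89 at -8.6 to -4.9 kb (adjusted p = 0.0063), -1.55 at -1.8 to 8.8 kb over Cd5l (adjusted p = 0.0038), -1.49 at 49.3 to 52.4 kb (adjusted p = 0.018) and, with no test, -1.59 at 77.3 to 78.7 kb, found in WT at 18 h alone.

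The inputs, used in no comparison, held called tags over Cd5l: 86.3, 62.5 and 93 in WT at 0, 1 and 18 h, and 40.7 and 6.05 in KO at 0 and 1 h. The KO input of 18 h held none over Cd5l, and 27554 regions in all, against 64725 to 108461 in the other inputs. With 1 input per group these values have no replicate, and their part in the Cd5l differences was not tested.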

How the results depend on the processing

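Of 203 values at Cd5l and of counts within 200 kb, 171 kept their direction and their side of the threshold or lay near the reported value. The 2 that reversed were the WT H3K27ac change from 0 to 18 h, at -0.06 without replicate 2 and -0.09 in a narrower window, neither past the threshold. With a pseudocount of 30 the WT H3K27ac changes passed at 1 h (-0.41) and from 1 to 18 h (0.45), as they did with touching regions in full (-0.84 and 0.91). The WT Pol II change from 0 to 18 h passed under quantile normalization (-0.50). The KO difference of H3K27ac at 0 h was lost with a pseudocount of 1 (-2.94).

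The described Pol II difference at 0, 1 and 18 h was -6.31, -7.73 and -9.50 with a pseudocount of 1, -4.40, -3.01 and -4.65 with 30, -6.08, -4.69 and -5.99 under quantile normalization, -2.26, -1.89 and -2.61 in a narrower window and -5.90, -4.65 and -6.63 with touching regions in full. With centring it was -5.14 at 1 h and -5.89 at 18 h. Of the 10 Pol II region calls besides Cd5l, 5 stood with a pseudocount of 30 and 2 with regions that overlap an input left out, which also left 0 of 7 calls of neighbouring genes, 2 of them those of Fcrl1, and 0 of 24 H3K27ac region calls. At Cd5l that setting gave no value, since every merged region there overlapped an input region. The single H3K27ac call at a neighbouring gene became 2 under quantile normalization and 6 without the KO libraries that stand apart (replicate 1 at 1 h and 18 h), a setting chosen after seeing the data. In the latter setting the genes called lower at 1 h and 18 h rose over the genome as well.

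Leaving out each replicate in turn gave -2.0 to -1.77 for the WT Pol II change at 1 h, -0.26 to -0.07 from 0 to 18 h and 1.69 to 1.75 from 1 to 18 h. For WT H3K27ac it gave -0.51 to -0.38, -0.06 to 0.15 and 0.45 to 0.53. The KO difference of H3K27ac was -2.67 to -2.45, -3.96 to -3.32 and -4.15 to -3.53 at 0, 1 and 18 h. Region calls were 10 to 11 for Pol II and 21 to 26 for H3K27ac, and H3K27ac calls of neighbouring genes 1 to 6.

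Replicate numbers did not pair the libraries. Correlations of same-numbered libraries were -0.063 to 0.078 for Pol II and -0.416 to 0.045 for H3K27ac, and a library correlated best with its own number in 30 of 90 and 35 of 90 looks. With the replicate number as a block, the Cd5l H3K27ac differences of KO were -2.56, -3.54 and -3.88, and no call near Cd5l changed.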
